A study of Mus musculus with 4 samples.

Results

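The genes described here are 9 genes of fatty acid oxidation and acyl-CoA hydrolysis, Acot1, Acot2, Cpt1a, Acadl, Acadm, Acadvl, Hadha, Hadhb and Ehhadh, found by symbol among the 25759 gene symbols of a read count table. All 9 were in the table and all 9 had enough reads to be tested, among 13306 genes tested. They were chosen by measured values, the log2 fold changes of these same libraries between genotypes, which were known when the genes were put together. Their differences between genotypes are therefore given as a description, and no test of them is offered as support.

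RNA came from alveolar epithelial type II cells, the surfactant-making cells of the lung alveolus, of mice of strain C57BL/6 aged 14 weeks. There were 2 libraries from mice with a conditional active mTOR transgene (genotype given as Sftpc-mTOR transgenic, here mTOR Tg) and 2 from wild-type mice (WT). Sftpc, the surfactant protein C gene named in the genotype, is active in type II cells; the sources used here do not say how the transgene is switched on or whether a library is 1 mouse or a pool. In bulk RNA, fewer cells of a type and less RNA per cell cannot be told apart.

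Mitochondrial fatty acid oxidation begins when a long-chain acyl-CoA is passed to carnitine by carnitine palmitoyltransferase at the outer mitochondrial membrane, carried inwards and turned back into acyl-CoA. An acyl-CoA dehydrogenase matched to the chain length then starts each round of shortening, and the trifunctional protein, a complex of alpha and beta subunits, completes the round for long chains. Peroxisomes run a parallel pathway with their own enzymes, and acyl-CoA thioesterases split acyl-CoA into free fatty acid and coenzyme A. Many of these genes are targets of PPAR nuclear receptors, best described in liver, and type II cells handle much fatty acid because they make surfactant lipid.

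Promoter windows are shown for the neighbouring thioesterase genes with the largest differences between genotypes, for the gene of the entry enzyme Cpt1a and for the shared start region of Hadha and Hadhb. Each window runs from 250 bases before the RefSeq start site to 50 bases from it on, on build GRCm38.p6, in the direction of the gene. Capitals mark matches, on either strand, to the CCAAT box (CCAAT), the GC box (GGGCGG) and the nuclear receptor hexamer (AGGTCA).
Acot1 (chr12:84009252-84009551, + strand): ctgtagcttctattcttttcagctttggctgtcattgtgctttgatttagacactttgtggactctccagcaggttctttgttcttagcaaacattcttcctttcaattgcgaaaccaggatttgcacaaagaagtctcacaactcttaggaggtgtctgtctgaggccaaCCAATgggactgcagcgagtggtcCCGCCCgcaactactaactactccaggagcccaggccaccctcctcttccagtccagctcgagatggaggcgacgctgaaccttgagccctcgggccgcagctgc
Acot2 (chr12:83987611-83987910, + strand): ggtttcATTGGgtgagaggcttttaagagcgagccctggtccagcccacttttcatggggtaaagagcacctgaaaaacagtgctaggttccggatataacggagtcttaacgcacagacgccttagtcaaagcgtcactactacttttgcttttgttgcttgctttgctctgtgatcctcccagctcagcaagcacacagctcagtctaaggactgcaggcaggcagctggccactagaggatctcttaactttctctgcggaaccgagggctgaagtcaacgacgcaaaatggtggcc
Cpt1a (chr19:3323051-3323350, + strand): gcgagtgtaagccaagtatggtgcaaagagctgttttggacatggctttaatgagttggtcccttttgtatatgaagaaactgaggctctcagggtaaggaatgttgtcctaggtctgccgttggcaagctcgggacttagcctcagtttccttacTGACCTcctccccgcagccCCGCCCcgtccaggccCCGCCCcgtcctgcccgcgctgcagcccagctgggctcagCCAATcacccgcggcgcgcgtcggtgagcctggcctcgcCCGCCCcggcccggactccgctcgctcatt
Hadhb (chr5:30155003-30155302, + strand): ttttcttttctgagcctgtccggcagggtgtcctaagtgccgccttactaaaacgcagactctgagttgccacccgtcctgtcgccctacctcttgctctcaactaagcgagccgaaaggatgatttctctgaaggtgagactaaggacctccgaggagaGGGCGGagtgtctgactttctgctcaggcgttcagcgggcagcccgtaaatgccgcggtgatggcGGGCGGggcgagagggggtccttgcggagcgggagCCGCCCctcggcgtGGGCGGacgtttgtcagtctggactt

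All 9 genes had such a window, and none of the marked matches in them overlapped another. A CCAAT box was found for 4 of the 9 genes (Acot1, Acot2, Cpt1a and Ehhadh), against 37.9% of the windows of all 27025 genes. A GC box was found for 6 (Acot1, Cpt1a, Acadl, Hadha, Hadhb and Ehhadh), against 35.9%. The only GC box of Hadha lies in its shared start region with Hadhb and is the same site as a GC box counted for Hadhb. The GC content of the 9 windows ran from 50.7% to 70.3%, against a median of 52.7% over all windows. The hexamer AGGTCA was found for 3 (Cpt1a, Acadm and Acadvl), against 16.0%. Of these, Cpt1a held all the kinds of match. The direct repeat bound by PPAR, searched on both strands as AGGNCA, 1 further base of any kind and AGGNCA again, was in none of the 9 windows and in 0.381% of all windows. No window of the 9 held TATAAA (14.2% of all windows), CACGTG (7.24%), TGACGTCA (1.88%), TGATGNAA (4.06%) or the estrogen-related receptor site TCAAGGTCA (0.407%). TGACNNNGC, the antioxidant response element, was found for Ehhadh alone, against 12.5% of all windows. A match is a run of letters and not a binding site, and an absent match says only that the letters are not in these 300 bases.

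The positions of the genes show 2 close pairs. On build GRCm38 (mm10), in the GENCODE M21 annotation, Acot2 (chr12:83987861-83993873) and Acot1 (chr12:84009490-84018371) lie in the same direction, with start sites 21629 bases apart. They open a run of 6 thioesterase genes in which Acot4, Acot3, Acot5 and Acot6 follow. Hadha (chr5:30118304-30155162, - strand) and Hadhb (chr5:30155248-30184593, + strand) run away from each other from start sites 86 bases apart. The RefSeq start sites of this pair, on which the promoter windows are placed, are not the same as these. Those windows share 228 bases, so the Hadhb window printed above holds most of the Hadha window read from the other strand. Cpt1a lies at chr19:3322334-3385733, Acadl at chr1:66830839-66863277, Acadm at chr3:153922357-153944632, Acadvl at chr11:70010183-70015411 and Ehhadh at chr16:21761287-21787807. The RefSeq window of Cpt1a begins at chr19:3323051, inside the span given for that gene. All 9 are annotated as protein-coding, and the counts cover their exons as the authors counted them.

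Reads of some of these genes are hard to assign. In windows of 50 bases along the longest coding transcript, 33.7% of those of Acot1 and 27.7% of those of Acot2 were found letter for letter in transcripts of other genes, mostly in each other. At 100 bases the shares were 21.9% and 17.1%. Hadhb shared 62.4% of its windows of 50 bases and 52.8% of those of 100 bases with other annotated genes, nearly all with the gene Gm13910. Acadvl shared 24.0% and 8.26% with Dvl2, whose exons lie over it on the opposite strand. Acadm shared 4.10% and Hadha 0.66% at 50 bases, while Cpt1a, Acadl and Ehhadh shared none at either length. The sources used here do not state the read length, the strandedness or how reads with several matches were treated. The counts of Acot1, Acot2, Hadhb and Acadvl are therefore less certain than the others.

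The libraries held 21972124 and 20273396 reads for mTOR Tg and 18146693 and 19018785 for WT. mTOR Tg replicate 1 stood apart, with Pearson's r of log2 CPM across genes of 0.951 to 0.954 with the other 3 libraries, which had 0.983 to 0.988 among themselves. Genes with long transcripts read lower in it, with a median log2 difference from the other libraries of -0.47 in the longest quartile of exon length, and short ones higher, with 0.41 in the shortest quartile. All 10 type II cell markers were detected. They summed to 101564 and 127938 CPM (a read count scaled to the library total) in mTOR Tg replicates 1 and 2. In WT the sums were 123935 and 106169 CPM. Sftpc held most of each sum. All these markers but Sftpc and Sftpd were lowest in mTOR Tg replicate 1. Slc34a2 was at 3877 and 9604 CPM in mTOR Tg replicates 1 and 2 and at 7759 and 7725 CPM in WT. All 7 club cell markers summed to 171341 and 61307 CPM in mTOR Tg replicates 1 and 2 and to 89777 and 96696 CPM in WT. Scgb1a1 held most of each sum. All these markers but Cckar were highest in mTOR Tg replicate 1, and Cckar was at 195 and 130 CPM in mTOR Tg and 209 and 208 CPM in WT. Red cell markers summed to 3235 and 1041 CPM in mTOR Tg replicates 1 and 2 and to 2548 and 3683 CPM in WT. Ciliated cell markers summed to 1715 and 835 CPM in mTOR Tg and 766 and 945 CPM in WT. All of them but Dnah5 were highest in mTOR Tg replicate 1, and Dnah5 was at 53.9 and 84.5 CPM in mTOR Tg and 68.6 and 98.7 CPM in WT. Endothelial markers summed to 86.2 and 91.6 CPM in mTOR Tg and 145 and 149 CPM in WT. Mesothelial markers summed to 27.5 and 20.5 CPM in mTOR Tg and 9.48 and 18.03 CPM in WT. Of the 7 adipocyte markers, Adipoq, Plin1, Lep and Cfd had no read in any library, and the sum was 0.247 to 0.455 CPM in mTOR Tg and 0.263 to 0.276 CPM in WT. The 9 markers of the cardiac muscle of pulmonary veins, a tissue rich in oxidation enzymes, summed to 4.98 to 10.2 CPM in mTOR Tg and 3.86 to 5.05 CPM in WT. Of these 9, 5 had at most 3 reads in every library, with Sln and Mybpc3 at 0. Tnni3 held most of each sum, with 8.83 and 4.14 CPM in mTOR Tg and 2.37 and 3.84 CPM in WT. Actc1 went the other way, with 0.68 and 0.20 CPM in mTOR Tg and 0.94 and 0.79 CPM in WT. The part of RNA of these other cell types and of transcript length in the values below was not tested beyond the values given beside them.

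Levels of the 9 genes differed widely. Levels per kilobase are normalised CPM, which are CPM on library sizes scaled by TMM factors, divided by the annotated exon length. In mTOR Tg the order ran from Acot1 at 83.4 ± 15.8 (SD, n = 2) through Acadl at 64.7 ± 8.97, Acadvl at 44.1 ± 5.67, Acot2 at 27.1 ± 13.9, Hadha at 19.3 ± 0.601, Acadm at 15.9 ± 0.224, Cpt1a at 13.0 ± 6.56 and Hadhb at 8.88 ± 0.221 to Ehhadh at 4.42 ± 2.31 CPM per kilobase. In WT it ran from Acadl at 49.9 ± 2.29 through Acot1 at 34.4 ± 2.10, Acadvl at 33.1 ± 1.67, Hadha at 17.3 ± 0.805, Acadm at 16.4 ± 1.01, Acot2 at 12.4 ± 2.91, Cpt1a at 9.22 ± 0.0447 and Hadhb at 7.95 ± 0.127 to Ehhadh at 4.72 ± 0.413 CPM per kilobase. Acot1 stood in the first place in mTOR Tg and in the second in WT, and Acot2 in the fourth place in mTOR Tg and in the sixth in WT. Among neighbours in the WT order, Acot1 and Acadvl, and Hadha and Acadm, lay within the larger SD of the pair. In the mTOR Tg order the same held for Acot2 and Hadha, for Acadm and Cpt1a, and for Cpt1a and Hadhb. Divided by the longest coding transcript instead, a length chosen after the data were seen, Acot1 led in WT too, at 59.4 CPM per kilobase against 52.2 for Acadl, and Acot2 came eighth, at 12.4.

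**Figure D1:**
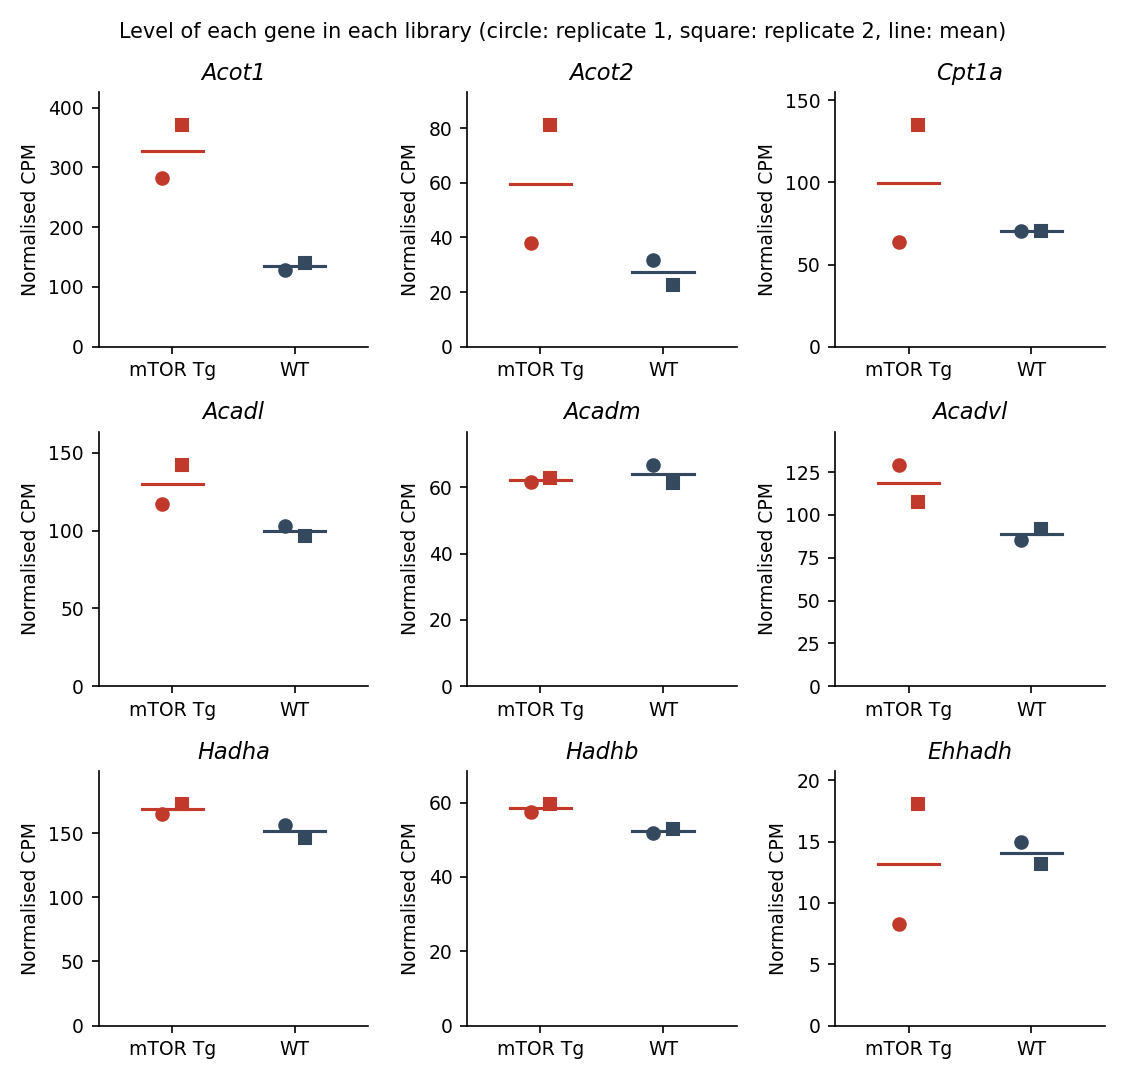
Normalised CPM of each of the 9 genes (y axis, from 0) in the 2 mTOR Tg and the 2 WT libraries, with replicate 1 as circles, replicate 2 as squares and the group mean as a line. Acot1 lies at 283 and 371 in mTOR Tg, apart from 129 and 141 in WT, while Cpt1a and Ehhadh are split between the mTOR Tg libraries.

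Acot1 encodes the cytosolic acyl-CoA thioesterase, which in mouse liver is a PPAR alpha target that frees long-chain fatty acids from coenzyme A. It had 5773 and 7744 reads in mTOR Tg replicates 1 and 2 and 2352 and 2785 reads in WT replicates 1 and 2. That is 283 and 371 normalised CPM in mTOR Tg and 129 and 141 in WT. The groups did not overlap, and the lower mTOR Tg library held about as much again as the higher WT library. The log2 fold change was 1.28 (SE 0.22), with values between 1.07 and 1.46 when 1 library was left out. With correction for length and GC content it was 1.31. Acot1 alone made up 28.3% and 32.4% of the reads of 17 thioesterase genes in the mTOR Tg libraries and 14.8% and 17.9% in the WT libraries.

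Acot2 encodes the mitochondrial relative of Acot1, which acts on long-chain acyl-CoA inside the matrix. It had 772 and 1693 reads in mTOR Tg and 577 and 448 in WT, or 37.9 and 81.1 normalised CPM in mTOR Tg and 31.7 and 22.6 in WT. The groups did not overlap, but mTOR Tg replicate 1 lay close to WT replicate 1, and replicate 2 was far above both. The log2 fold change was 1.13 (SE 0.40). Leaving out mTOR Tg replicate 1 gave 1.58, and leaving out replicate 2 gave 0.48. After correction for length and GC content, replicate 1 stood 0.11 and replicate 2 stood 1.58 above the WT mean on the log2 scale. The level of Acot1 per kilobase was 4.19 and 2.56 times that of Acot2 in mTOR Tg and 2.28 and 3.48 times in WT, and these ratios overlapped between the genotypes.

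The remaining genes of the chromosome 12 run had few reads. Acot4, which encodes a peroxisomal thioesterase, had 5 and 26 reads in mTOR Tg and 3 and 9 in WT. Acot3 had 0 and 2 reads in mTOR Tg and none in WT. Acot5 had 2 reads in each mTOR Tg library and none in WT, and Acot6 had 23 and 37 reads in mTOR Tg and 35 and 34 in WT. Acot1 and Acot2 were thus the well-counted genes of this run. In normalised CPM, Acot1, Acot2 and Acot4 were all highest in mTOR Tg replicate 2. Acot7, on another chromosome, had more reads than Acot1, 10901 and 12174 in mTOR Tg and 10860 and 10313 in WT, and its log2 fold change was 0.00 (SE 0.21), with a sign that turned negative under library totals, DESeq2 size factors and the length and GC correction.

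**Figure D2:**
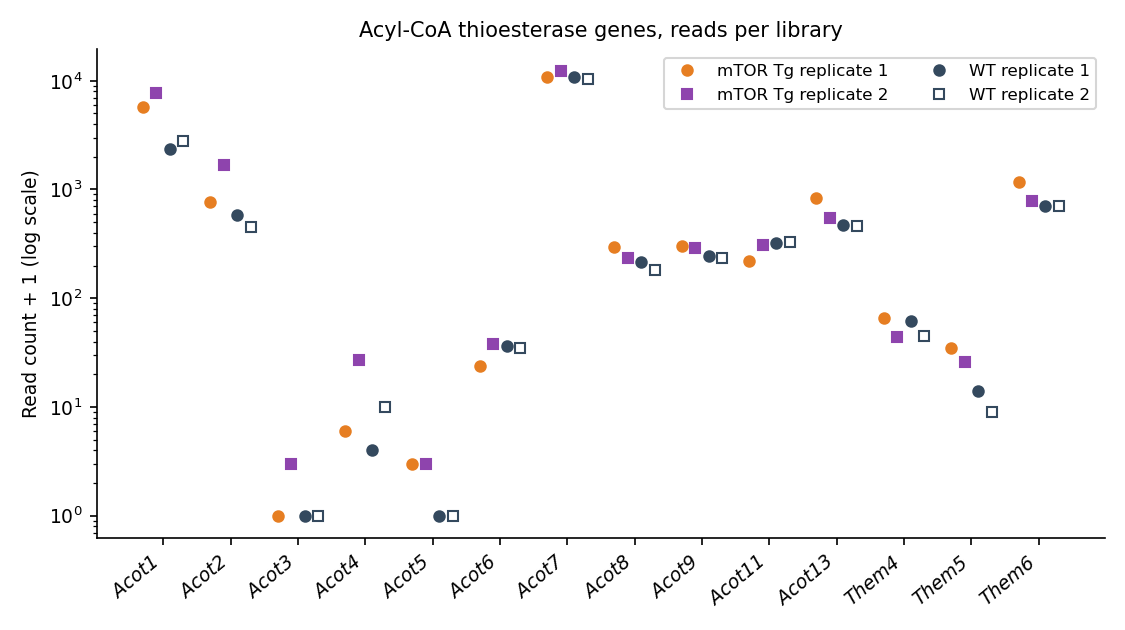
Reads plus 1 (log scale) of 14 acyl-CoA thioesterase genes in each library, mTOR Tg replicates first and WT replicates after them. Acot1 and Acot2 lie higher in both mTOR Tg libraries than in either WT library, whereas Acot7, with 10313 to 12174 reads, is level across the 4 libraries.

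Cpt1a encodes the liver form of carnitine palmitoyltransferase, the entry enzyme of mitochondrial oxidation, which malonyl-CoA inhibits. It had 1303 and 2817 reads in mTOR Tg and 1279 and 1399 in WT, or 63.9 and 135 normalised CPM in mTOR Tg and 70.2 and 70.7 in WT. The WT libraries were nearly equal, mTOR Tg replicate 2 was at about their double and replicate 1 slightly below them, so the groups overlapped. The log2 fold change was 0.50 (SE 0.37). Leaving out mTOR Tg replicate 1 gave 0.94 and leaving out replicate 2 gave -0.14, so its direction rests on 1 library. Cpt1a has long transcripts, and with the length and GC correction mTOR Tg replicate 1 stood 0.10 above the WT mean instead of 0.14 below it, against 0.93 for replicate 2. Relative to Cpt2, the inner-membrane enzyme that reverses its reaction, Cpt1a per kilobase was at 0.796 and 1.66 in mTOR Tg and at 1.09 and 1.10 in WT.

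The acyl-CoA dehydrogenases did not share a pattern. Acadl, the long-chain enzyme, had 2384 and 2974 reads in mTOR Tg and 1880 and 1914 in WT, or 117 and 142 normalised CPM in mTOR Tg and 103 and 96.7 in WT. The values of mTOR Tg were both above those of WT, with a log2 fold change of 0.38 (SE 0.20) and 0.23 to 0.51 with 1 library left out. Acadvl, the very-long-chain enzyme bound to the inner membrane, had 129 and 108 normalised CPM in mTOR Tg and 85.6 and 92.0 in WT. Its groups did not overlap either, and it was the only one of the 9 genes with the higher value in mTOR Tg replicate 1. The log2 fold change of Acadvl was 0.42 (SE 0.20) and 0.24 after the length and GC correction, smaller by more than 1.5 times. Dvl2, the gene over it on the other strand, had 765 and 700 reads in mTOR Tg and 798 and 701 in WT, against 2636 and 2251 for Acadvl in mTOR Tg and 1560 and 1820 in WT. Acadm, the medium-chain enzyme, had 61.8 and 63.0 normalised CPM in mTOR Tg and 66.9 and 61.3 in WT, with both mTOR Tg values between the WT values. Its log2 fold change was -0.04 (SE 0.19), from -0.10 to 0.02 with 1 library left out. Per kilobase, Acadl stood at 3.70 and 4.41 times Acadm in mTOR Tg and at 3.01 and 3.08 times in WT, and Acadvl at 3.05 and 2.49 times Acadm in mTOR Tg and 1.87 and 2.19 times in WT.

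Hadha and Hadhb encode the alpha and beta subunits of the mitochondrial trifunctional protein. Hadha had 3365 and 3603 reads in mTOR Tg and 2846 and 2895 in WT, or 165 and 173 normalised CPM in mTOR Tg and 156 and 146 in WT. Hadhb had 1172 and 1244 reads in mTOR Tg and 944 and 1049 in WT, or 57.5 and 59.6 normalised CPM in mTOR Tg and 51.8 and 53.0 in WT. In both genes the groups stood apart by a narrow gap and the libraries of each genotype were close together. The log2 fold changes were 0.16 (SE 0.19) for Hadha and 0.16 (SE 0.18) for Hadhb, and with library totals as the only scaling 0.0984 and 0.0978. The ratio of Hadha to Hadhb per kilobase was 2.17 and 2.19 in mTOR Tg and 2.28 and 2.08 in WT, and 1.46 and 1.48 against 1.54 and 1.41 on the length of the longest coding transcript. As counted, the subunit genes thus kept nearly the same ratio in all 4 libraries, including the library that stood apart. Corrected for length and GC content, their log2 fold changes came to 0.31 for Hadha and 0.51 for Hadhb. mTOR Tg replicate 1 then stood 0.42 and 0.76 above the WT mean, and replicate 2 stood 0.18 and 0.22 above it. After the correction the ratio was thus lower in replicate 1 than in replicate 2. The uncorrected values in mTOR Tg replicate 1 were 0.13 for each gene. The correction used the merged exons of all annotated transcripts, 8730 bases for Hadha and 6595 for Hadhb. The longest coding transcripts have 4017 and 2048 bases.

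Ehhadh encodes the peroxisomal bifunctional enzyme, which carries out a hydration and an oxidation step of the peroxisomal pathway. The gene was the lowest of the 9. It had 169 and 377 reads in mTOR Tg and 272 and 261 in WT, or 8.29 and 18.1 normalised CPM in mTOR Tg and 14.9 and 13.2 in WT. The mTOR Tg libraries lay on opposite sides of WT, so the groups overlapped. The log2 fold change was -0.09 (SE 0.39). Leaving out mTOR Tg replicate 1 turned it to 0.36, and leaving out replicate 2 gave -0.76. After correction for length and GC content the libraries still stood at -0.80 and 0.36 against the WT mean.

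**Figure D3:**
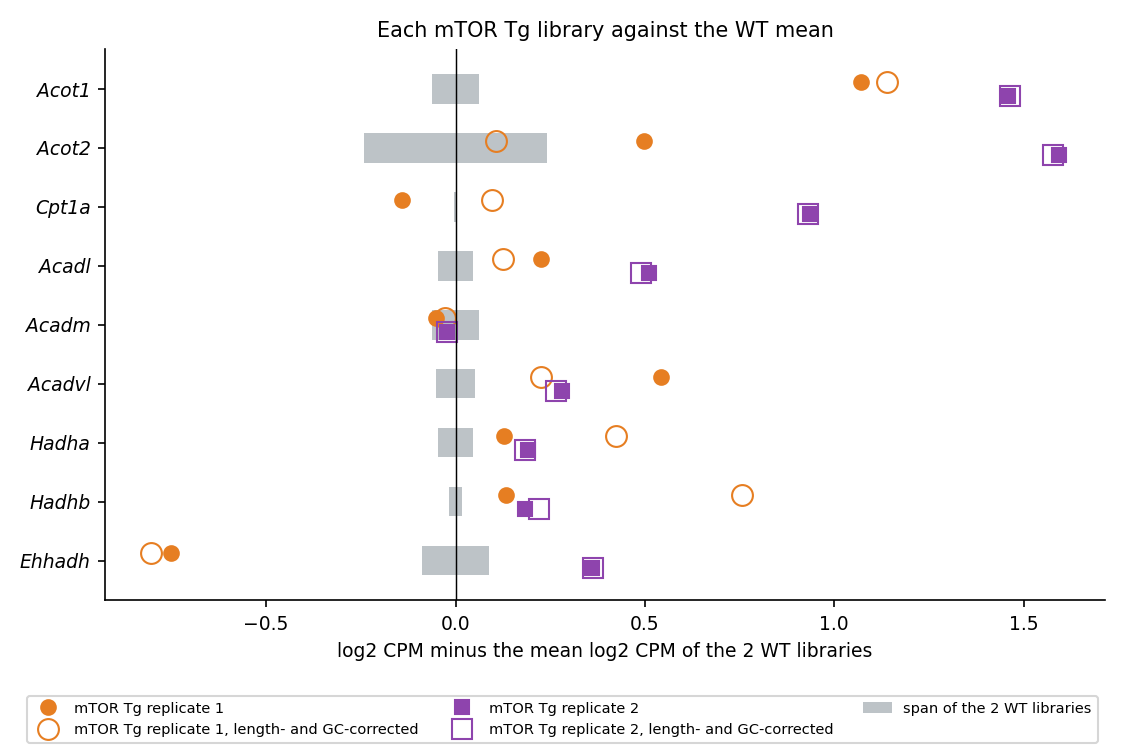
Log2 CPM of each mTOR Tg library minus the mean of the 2 WT libraries (x axis) for the 9 genes, filled as counted and open after correction for annotated exon length and GC content. Grey bars span the 2 WT libraries as counted. Acot1 stands at 1.07 and 1.46, while Cpt1a (-0.14 and 0.94) and Ehhadh (-0.75 and 0.36) fall on both sides of WT.

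Together, 6 of the 9 genes had both mTOR Tg libraries above both WT libraries, against 17.6% of all genes tested, and 0 had both below, against 17.0%. As the genes were chosen with these values known, nothing is read from that comparison. mTOR Tg replicate 2 alone was above both WT libraries in 8 of the 9 genes, against 35.1% of all genes, and replicate 1 in 6, against 44.7%. The log2 fold change was positive in 7 of the 9, against 50.9% of all genes, and stayed positive with each library left out in turn in 6, against 24.0%. Its median was 0.38 over the 9 genes and 0.01 over all genes tested. The median of the 9 genes stood 0.13 above the WT mean in mTOR Tg replicate 1 and 0.36 in replicate 2, against 0.01 and -0.00 for all genes. After the length and GC correction these medians were 0.12 and 0.36. Summed over the 9 genes, the level was 924 and 1150 normalised CPM in mTOR Tg and 710 and 697 in WT. Acot1 was the largest item of that sum in both mTOR Tg libraries, and Hadha in both WT libraries.

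In edgeR's quasi-likelihood test over all 13306 genes, 0 of the 9 genes had an adjusted p under 0.05, with 0.860 as the smallest, and 0.00% of all genes were called. At an unadjusted p under 0.05 there were 2 of the 9 (Acot1 and Acot2), against 2.46% of all genes. limma-voom called 0 of the 9 and 0.00% of all genes, and DESeq2 called 1 (Acot1), against 0.0999%. Without mTOR Tg replicate 1, 4 were called higher (Acot1, Acot2, Cpt1a and Acadl), against 1.25% of genes. Without mTOR Tg replicate 2, 3 were called higher (Acot1, Acot2 and Acadvl), against 21.8%, and 1 lower (Ehhadh), against 23.6%. These fits hold a single mTOR Tg library and take its spread to be that of WT. Without WT replicate 1 or 2, 0 of the 9 were called, against 0.0802% and 0.109% of all genes. With 2 libraries against 2, an exact two-sided permutation test of 1 value cannot give a p below 0.333.

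The spread within a genotype differed among the 9. It comes from the same libraries as the log2 fold changes known at the choice of genes, so it is a description too. The mTOR Tg libraries lay further apart than the WT libraries in 7 of the 9 genes, against 79.3% of all genes tested. The median gap was 0.28 in mTOR Tg and 0.10 in WT on the log2 scale for the 9 genes, and 0.45 and 0.14 for all genes. Ehhadh, Acot2 and Cpt1a had the widest gaps in mTOR Tg, 1.11, 1.10 and 1.08, all with the higher value in replicate 2. Acadm, Hadhb and Hadha had the narrowest, 0.03, 0.05 and 0.06. In WT the gaps were at most 0.13 in size, apart from 0.18 for Ehhadh and 0.48 for Acot2, which were both lower in replicate 2. As counted, the 9 genes thus fell into a group with split mTOR Tg libraries and a group in which those libraries were close. Acot1 (0.39), Acadl (0.28) and Acadvl (-0.26) lay between. The length and GC correction changed this grouping. mTOR Tg replicates 1 and 2 then stood 0.76 and 0.22 above the WT mean for Hadhb and 0.42 and 0.18 for Hadha. For Acadvl they stood close together, at 0.22 and 0.26, as they did for Acadm, at -0.03 and -0.02.

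Likeness over the 4 libraries was measured as the Euclidean distance between log2 CPM centred on each gene's mean. The 5 tested genes nearest to Acot1 were C4b, C2, A2ml1, Cbr3 and Ccl20, at distances of 0.137 to 0.256, and Acot2 came at rank 113 with 0.694. The 5 nearest to Cpt1a were Rab3c, Pex5l, Fbxo32, Apoe and Pkhd1l1, at 0.0497 to 0.138, and the nearest of the other 8 genes was Acadl at rank 375. The 5 nearest to Ehhadh were Zfp738, Erc1, Fbxl20, Zfp128 and Rbm47, at 0.0348 to 0.0851, and the nearest of the 9 was Cpt1a at rank 3350. With 4 libraries many genes lie close by such a measure, so it describes these libraries only.

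Beyond the 9 genes, the lists of the pathway held 111 genes, of which 110 were matched and 87 were tested. edgeR called 0 of the 87 higher and 0 lower, with 9 at an unadjusted p under 0.05, against 2.46% of all genes. DESeq2 called 1 of them, Angptl4, against 0.0999% of all genes. In the mitochondrial oxidation list 19 of 21 log2 fold changes were positive, with a median of 0.20; mTOR Tg replicate 1 stood a median of 0.28 above the WT mean and replicate 2 stood 0.16 above it. Around the entry step, Slc25a20, the carrier that brings acylcarnitine inwards, had 43.3 and 51.3 normalised CPM in mTOR Tg and 29.9 and 29.4 in WT, a log2 fold change of 0.68 (SE 0.20). Cpt2 was at 0.33 (SE 0.19), and at 0.17 with the length and GC correction. Of the enzymes of the shortening round, the log2 fold change was 0.29 (SE 0.23) for Acads, 0.20 (SE 0.18) for Hadh, 0.47 (SE 0.20) for Acaa2, 0.16 (SE 0.20) for Decr1, -0.08 (SE 0.21) for Echs1 and -0.02 (SE 0.22) for Etfdh. The signs of Echs1 and Etfdh turned with the length and GC correction, under which Acads came to 0.03 and Acaa2 to 0.23. Without mTOR Tg replicate 1 Acads was at 0.11, and without WT replicate 2 Decr1 was at 0.0419.

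In the peroxisomal list, to which Ehhadh belongs by function, 8 log2 fold changes were positive and 8 negative, with a median of -0.01. Hsd17b4, the other bifunctional enzyme, was at 0.01 (SE 0.20), a sign that turned with library totals and with the length and GC correction. The thiolase Acaa1a was at 0.54 (SE 0.25) and the isomerase Ech1 at 0.44 (SE 0.20). Without mTOR Tg replicate 1 these were 0.23 for Acaa1a and 0.28 for Ech1, and Ech1 was at 0.22 with the length and GC correction. Of 9 other thioesterase genes tested, 6 were positive, with a median of 0.19; Acot8 was at 0.28 (SE 0.26), Acot9 at 0.19 (SE 0.22) and Acot13 at 0.45 (SE 0.28). Without mTOR Tg replicate 1 the values were 0.0918 for Acot8 and 0.0899 for Acot13, and with the length and GC correction 0.0499 for Acot8 and 0.17 for Acot13. Without WT replicate 2, Acot9 was at 0.0999. Acot11, named after its value was seen, was at -0.42 (SE 0.25), with 10.6 and 14.7 normalised CPM in mTOR Tg and 17.6 and 16.5 in WT. In the list of activation and uptake, 7 of 13 were positive, with a median of 0.06. Its members Acsl1, which activates long-chain fatty acid, and Cd36, which takes it up, were at -0.30 (SE 0.23) and -0.19 (SE 0.31), and both were positive after the length and GC correction.

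In the list of regulators 9 of 16 log2 fold changes were positive, with a median of 0.05. As with Ehhadh, the mTOR Tg libraries parted, with a median of -0.36 against the WT mean in replicate 1 and 0.27 in replicate 2. Ppara, the nuclear receptor for which this pathway is best known, had 40 and 162 reads in mTOR Tg and 97 and 115 in WT, on opposite sides of WT, with a log2 fold change of -0.20 (SE 0.61). Ppard was at 0.13 (SE 0.20) and Pparg at 0.10 (SE 0.28). Acaca and Acacb, which make malonyl-CoA, the inhibitor of the Cpt1a enzyme, were at -0.65 (SE 0.36) and -0.30 (SE 0.25). Acaca had 123 and 249 normalised CPM in mTOR Tg and 298 and 284 in WT. With 1 library left out it ran from -1.25 to -0.23 and Acacb from -0.55 to -0.0920, lowest without mTOR Tg replicate 2 and nearest 0 without replicate 1. With the length and GC correction Acaca was at -0.37. In the list of PPAR targets and fuel use 13 of 21 genes were tested. All 13 had a positive log2 fold change, with a median of 0.71. The medians by library were 0.74 for mTOR Tg replicate 1 and 0.61 for replicate 2. The genes in the next 3 sentences were named after their values were seen. Cyp4a10, Cyp4a14 and Cyp4a31 had 0 reads in every library, and Fgf21 had 1 read, in WT replicate 2. The groups overlapped for Vnn1, Mgll and Cidea. Without mTOR Tg replicate 2, Vnn1 was at -0.18 and Mgll at -0.31, and without replicate 1 Cidea was at -0.65. The list was written with part of these values known and is no independent evidence of a direction. Pdk4, the kinase that shuts off pyruvate oxidation, had 243 and 546 reads in mTOR Tg and 111 and 143 in WT, a log2 fold change of 1.51 (SE 0.41). Angptl4 was at 4.21 (SE 0.78), with 168 and 767 reads in mTOR Tg and only 22 and 24 in WT. Plin2, of the lipid droplet coat, was at 1.17 (SE 0.30). Without mTOR Tg replicate 2, Angptl4 was at 2.76, Plin2 at 0.74 and Pdk4 at 0.84. Pdk4, Angptl4 and Plin2 were higher in mTOR Tg replicate 2 than in replicate 1, as were 8 of the 9 genes.

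**Figure D4:**
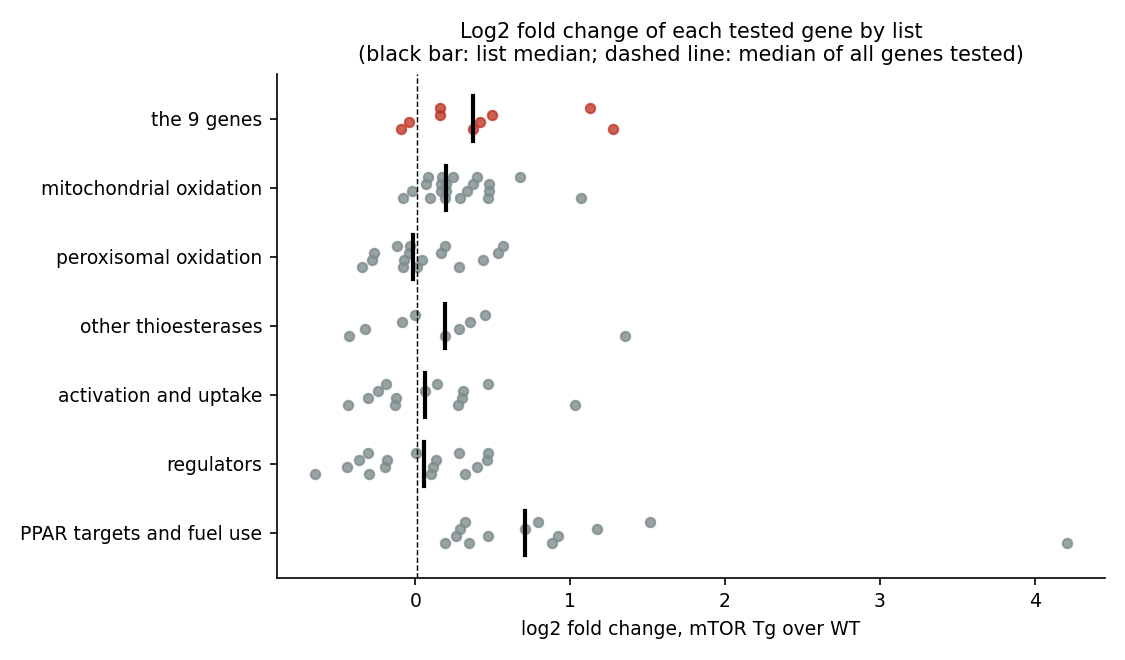
Log2 fold change of mTOR Tg over WT (x axis) for the 9 genes and for each tested gene of the 6 pathway lists, with the list median as a black bar and the median of all genes tested as a dashed line. The 9 genes have a median of 0.38, mitochondrial oxidation 0.20, peroxisomal oxidation -0.01 and PPAR targets 0.71.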

How the data were processed

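The authors deposited 1 table of 4 libraries holding unnormalised read counts, whole numbers, for each gene symbol. HISAT2, edgeR and build mm10 are named in the submitters' processing notes, with the counting program, annotation and versions not given in the sources used here. Columns were tied to samples by the sample names in the labels. The genes and lists were chosen with earlier results of these data known.

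Counts were fitted with edgeR 4.0.16 in R 4.3.3: filterByExpr by group (minimum count 10), TMM factors (0.928 to 1.04), glmQLFit and glmQLFTest with genotype as the term, and Benjamini-Hochberg adjustment over 13306 genes at 0.05. The SE is the size of the log2 fold change over the square root of F, and a prior count of 2 went into log2 CPM. Alternatives were other scaling, filters, DESeq2 1.42.0, limma 3.58.1, a loess offset (span 0.3) on exon length and GC content, a replicate term and leaving out each library. Lengths and positions are from GENCODE M21, promoters from RefSeq. Exon length is that of all annotated transcripts of a gene merged, and GC content is that of its longest transcript. The code was tested on simulated counts. At the spread of the WT pair, the edgeR fit recovered 99% of 2-fold and 100% of 4-fold changes. At the spread of all 4 libraries it recovered 22% and 99%. The simulation gave every gene the same spread in both genotypes. In the data, the coefficient of variation common to the genes was 0.33 in mTOR Tg and 0.09 in WT. Angptl4, at a log2 fold change of 4.21, was not called by the edgeR test (adjusted p 0.860). The recovered shares therefore do not carry over to these libraries, and a lack of calls says little about changes of either size. Nothing in the labels says that samples came from separate mice, so p-values reflect only the spread between the libraries, which may be technical.

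The genes named are the 9 genes, a set of pathway genes listed by name, and the 5 nearest to each of Acot1, Cpt1a and Ehhadh. Genes overlapping or neighbouring the 9 on the chromosome are named for their position. Pathway genes named after their values were seen are marked as such. Some genes of the set are not reported here.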

Additional observations from a re-analysis of the deposited data

How the results depend on the processing

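The 9 genes called numbered 0 in the edgeR fit and under other scaling, filters, limma-voom and the length and GC correction. DESeq2 called 13 genes in all, 1 of the 9 genes and 1 pathway gene. The replicate numbers share no stated source, and the deviations of same-numbered libraries correlated at r = 0.07 across genes. With the replicate block, 37 genes were called (22 higher, 15 lower), with 1 of the 9 (Acot1) and 2 pathway genes. With 1 library left out, calls ranged from 11 to 6200 over all genes, from 0 to 4 among the 9 and from 1 to 46 among pathway genes; the highest counts came without mTOR Tg replicate 2, with 4 of the 9 also without replicate 1. The median log2 fold change of the 9 then ran from 0.13 (without mTOR Tg replicate 2) to 0.36. Of the 87 pathway genes tested, 14 turned sign with the length and GC correction and 5 with library totals. Among those named, signs turned with the length and GC correction for Echs1 (0.15), Etfdh (0.23), Hsd17b4 (-0.0279), Acot7 (-0.21), Acsl1 (0.10) and Cd36 (0.0102), with upper quartile factors for Etfdh (0.0024), with library totals for Hsd17b4 (-0.0464) and Acot7 (-0.0569), and with DESeq2 and its size factors for Acot7 (-0.0042 in both). With 1 library left out, log2 fold changes ran from -0.24 to 0.0673 for Echs1, -0.21 to 0.14 for Etfdh, -0.11 to 0.12 for Hsd17b4, -0.0942 to 0.10 for Acot7, -0.63 to 0.14 for Cd36, -1.50 to 0.48 for Ppara and -0.18 to 0.34 for Pparg. The cause was not tested. Each of the 9 genes had at least 169 reads in every library.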
